A study of Homo sapiens with 42 samples.

Results

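Amino acid transporters are the membrane proteins that bring amino acids into the cell. A set of 10 of their genes is described here: SLC7A11, SLC3A2, SLC7A5, SLC7A1, SLC1A4, SLC1A5, SLC38A1, SLC38A2, SLC6A9 and SLC43A1. They were chosen by name, and each was taken from the row of the value table that carries its symbol alone. All 10 were found, among 18404 genes tested. SLC1A5 had 2 rows, and the one with the higher mean over all 42 arrays was used. The arrays are one-colour Affymetrix arrays, and levels are log2 values, so a difference of 1 is a doubling.

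The study followed 2 human lung cancer cell lines after 2 Gy of gamma radiation. H460 is a large-cell carcinoma line, called radiosensitive by the study, and H1299 is a non-small cell carcinoma line, called radioresistant. Cells were dosed in exponential growth. Per line, 6 arrays hold undosed cells (0 h), and 3 hold cells collected 2, 4, 8, 12 or 24 h after the dose, 3 for every time; all carry the label of biological replicates. The groups are thus H460 and H1299 cells at 0 h with no dose, and the same cells at 5 times after the same dose. As background, H460 carries a mutated KEAP1 gene. Whether replicates came from separate cultures is not said beyond the label, so p-values measure the spread between these arrays. The treatment protocol mentions unirradiated controls incubated for the same times, but the labels give unirradiated arrays at 0 h only. Every array after 0 h was taken as irradiated. Hours since irradiation and hours in culture thus cannot be told apart in any change below.

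The carriers work as follows. SLC3A2 (4F2hc, CD98) is a heavy chain that brings light chains to the cell surface. With the light chain SLC7A11 (xCT) it imports cystine, the raw material of glutathione, in exchange for glutamate. With the light chain SLC7A5 (LAT1) it imports leucine and other large neutral amino acids in exchange for glutamine. SLC7A1 (CAT1) carries arginine and lysine. SLC1A4 (ASCT1) carries alanine, serine, cysteine and threonine, and SLC1A5 (ASCT2) is a major carrier of glutamine. SLC38A1 and SLC38A2 (SNAT1, SNAT2) take up small neutral amino acids together with sodium. SLC6A9 (GLYT1) carries glycine, and SLC43A1 (LAT3) carries branched-chain amino acids without a heavy chain. When amino acids run short, the kinase GCN2 favours synthesis of the transcription factor ATF4, which binds C/EBP-ATF response elements and is known to activate many of these genes. Transcription factor NRF2, which KEAP1 holds in check, is a further known activator of SLC7A11.

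The core of that response element is known, so the promoters are shown before the values. RefSeq promoter windows (build GRCh38.p14, 250 bases before to 50 after each annotated start) matched 9 of the 10 genes, all but SLC7A11, with 16 windows in all because some genes have several starts. The letters TGATGNAA were searched on both strands. They were found in 5 of the 16 windows, those of 5 genes, and in 3.62% of all 35116 windows of the same length. The 5 stretches of 30 bases are printed 5′ to 3′ on the gene's strand, with the matching letters in capitals.
SLC1A4 (chr2:64989381-64989410, plus strand): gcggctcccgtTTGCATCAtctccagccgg
SLC3A2 (chr11:62881719-62881748, plus strand): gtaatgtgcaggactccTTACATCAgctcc
SLC38A1 (chr12:46266502-46266531, minus strand): tcagacccgaaTGATGAAAagggatcagct
SLC7A1 (chr13:29595663-29595692, minus strand): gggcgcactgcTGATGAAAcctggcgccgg
SLC1A5 (chr19:46784893-46784922, minus strand): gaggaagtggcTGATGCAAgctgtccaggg

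In SLC1A4 and SLC3A2 the match is on the opposite strand. The match begins 97 bases before an SLC1A5 start, and that start is 1 of 3 annotated for the gene. It spans the start itself in SLC1A4, beginning 7 bases before it, and in SLC38A1, beginning 4 bases before it. It begins at transcribed base 8 in SLC7A1 and at base 38 in SLC3A2. The letters TGACNNNGC, the core of the antioxidant response element that NRF2 binds, were found in 4 of the 16 windows, those of SLC3A2, SLC7A1, SLC7A5 and SLC1A5, and in 13.3% of all windows. No match of one motif overlapped a match of the other in these windows. A match only says that the letters are there. SLC7A5, SLC38A2, SLC6A9 and SLC43A1 do not hold TGATGNAA in these windows.

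Before irradiation, the amino acid carriers stood higher in H460 than in H1299 for 7 of the 10 genes and lower for 1 (limma, adjusted p under 0.05). Of all genes, 26.0% were higher in H460 and 29.1% were lower. Where arrays are said below not to overlap, the share of all genes that separate in the same way was not counted. The median difference over the 10 genes was 0.54, against 0.07 over all genes. SLC7A11 differed the most among the 10, followed by the sodium-dependent carriers SLC1A4 and, in the row used, SLC1A5.

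SLC7A11 (row 8102800, chr4:138164097-138242349), the cystine light chain, ran from 11.15 to 11.74 over the 6 arrays of H460, with a median of 11.44. In H1299 it ran from 6.35 to 6.92, with a median of 6.81. Every H460 array stood far above every H1299 array. The difference was 4.71 ± 0.11 (model standard error), 26.1-fold, with limma's adjusted p = 4.33e-18. In H460 that level exceeds those of 99.3% of genes, and in H1299 it exceeds those of 58.4%.

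SLC1A4 (row 8042310, chr2:64988479-65023865) ran from 7.24 to 7.61 in H460 (median 7.50) and from 6.06 to 6.45 in H1299 (median 6.38). The groups did not overlap, and H460 was 2.21-fold higher (1.14 ± 0.094, adjusted p = 1.93e-09). SLC1A5 (row 8037835, chr19:46774883-46788594), the glutamine carrier, ran from 9.18 to 9.51 in H460 (median 9.38) and from 7.97 to 8.44 in H1299 (median 8.34). It was 2.10-fold higher in H460 (1.07 ± 0.084, adjusted p = 9.35e-10), again with no overlap in this row. The dimmer row of SLC1A5 (row 8029854) ran from 5.49 to 6.18 in H460 and from 5.28 to 5.66 in H1299, with overlap. Over the alternatives run, the SLC1A5 difference was 0.73 to 1.24 and passed each time (limma, adjusted p at most 4.44e-08). The heavy chain SLC3A2 (row 7940717, chr11:62856109-62888860) was 1.70-fold higher in H460 (0.77 ± 0.15, adjusted p = 2.06e-04), but its arrays overlapped, with H460 from 9.70 to 10.56 and H1299 from 8.84 to 9.77.

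Smaller differences of the same direction were found for 3 more carriers, each without overlap between the lines. The arginine carrier SLC7A1 (row 7970810, chr13:29509414-29595688) was higher in H460 by 0.66 ± 0.082, with 9.13 to 9.53 against 8.47 to 8.79. The leucine light chain SLC7A5 (row 8003298, chr16:87830023-87869507) was higher by 0.42 ± 0.063, with 10.56 to 10.72 against 10.14 to 10.33. The glycine carrier SLC6A9 (row 7915543, chr1:43996483-44031462) was higher by 0.40 ± 0.099, with 5.68 to 6.06 against 5.27 to 5.62. The adjusted p of these 3 ranged from 7.34e-07 to 0.00183.

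SLC38A2 was the 1 gene of the 10 that passed as lower in H460. This carrier (row 7962537, chr12:46358188-46372773) ran from 11.06 to 11.36 in H460 (median 11.10) and from 11.60 to 11.81 in H1299 (median 11.74). The difference was -0.57 ± 0.069 (adjusted p = 5.87e-07), and the arrays did not overlap. Its neighbour on chromosome 12 and relative in sequence family, SLC38A1 (row 7962516, chr12:46183063-46269043), differed by 0.02 (95% confidence interval -0.16 to 0.20, adjusted p = 0.856). SLC43A1 (row 7948249, chr11:57484534-57515702) differed by -0.13 (interval -0.36 to 0.09, adjusted p = 0.308). Neither of these passed the test, and both overlapped between the lines.

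**Figure D1:**
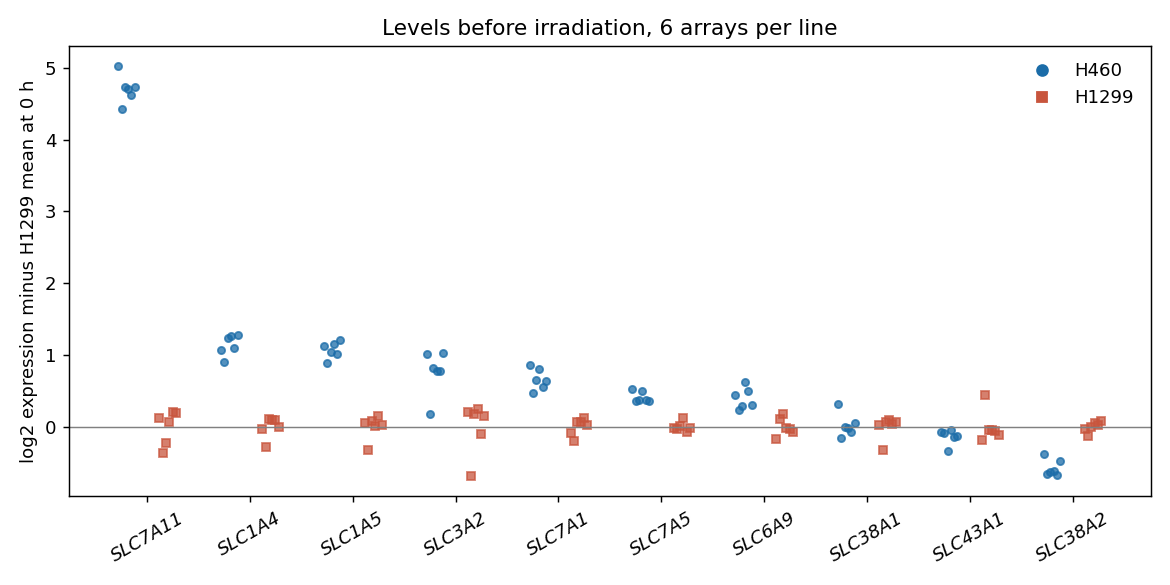
Levels before irradiation. Each point is 1 of 6 arrays of H460 (circles) or H1299 (squares), as log2 expression minus the H1299 mean of that gene at 0 h. SLC7A11 stands 4.71 higher in H460, 6 other genes stand 0.40 to 1.14 higher, and SLC38A2 stands 0.57 lower.

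The array distributions differed in width, which bears on the early changes. In H460 the interquartile range over genes averaged 3.34 (SD 0.169) on the 6 undosed arrays, 2.84 (SD 0.117) on the 3 arrays of 2 h, and between 3.64 and 3.67 on those of 8 h and later. H1299 averaged 3.58 (SD 0.173) undosed, with 3.53 to 3.82 for the later groups. The narrowest H1299 array at 0 h, replicate 2, had a width of 3.24. The keratins KRT8 and KRT18, epithelial markers, stood between 10.4 and 12.5 on all arrays. KRT19 was at 11.0 to 11.9 in H460 but 4.48 to 5.65 in H1299, and the epithelial adhesion genes EPCAM and CDH1 stood at 4.58 or lower in both lines. Over all 21 arrays of a line, the 4 leukocyte markers ran from 2.36 to 5.30 in H1299 and from 2.48 to 6.60 in H460, with PTPRC lowest and CD14 highest in H460. The 5 fibroblast markers ran from 2.11 to 6.63 in H1299 and from 2.80 to 7.28 in H460, with COL1A1 highest in both and DCN at 3.37 or lower. The 4 endothelial markers did not exceed 4.69 in either line. No detection calls came with the values, so no level of background could be set.

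Over 24 h, 9 of the 10 genes had a time course in H1299 by quadratic regression on hours, and 3 had one in H460 (limma, adjusted p under 0.05). The share of all genes was 36.5% in H1299 and 41.9% in H460. In H1299 SLC3A2 did not pass (adjusted p = 0.11), but it did with array width as a covariate (adjusted p = 0.00266) and with 1 mean per time point (adjusted p = 0.00931). The 3 in H460 were SLC38A2 (adjusted p = 0.00224), SLC38A1 (adjusted p = 0.0341) and SLC1A4 (adjusted p = 0.0491). All 3 calls were lost with array width as a covariate (adjusted p = 0.0588, 0.742 and 0.336), while SLC6A9 and SLC43A1 passed (adjusted p = 0.0365 and 0.0338). Quantile normalization lost SLC38A1 and SLC1A4 (adjusted p = 0.202 and 0.165), and SLC7A1, SLC1A5 and SLC6A9 passed (adjusted p = 0.015, 0.0432 and 0.0427). The SLC1A4 call was lost in 21 of the 29 alternatives run, most of which left out 1 array. Median centring and robust eBayes were among them (adjusted p = 0.0843 and 0.0511). The SLC38A1 call was lost in 9 of the 29 and the SLC38A2 call in 1. In H460 the count fell to 1 without 0 h replicate 2 or 5, 8 h replicate 1, 12 h replicate 1, 2 or 3, or 24 h replicate 2, and it was 5 without 2 h replicate 3. With 1 mean per time point in place of the quadratic, 7 genes passed in H460, against 12752 of all 18404 genes. In H1299 SLC43A1 lost its call without 24 h replicate 1 (adjusted p = 0.0561).

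**Figure D2:**
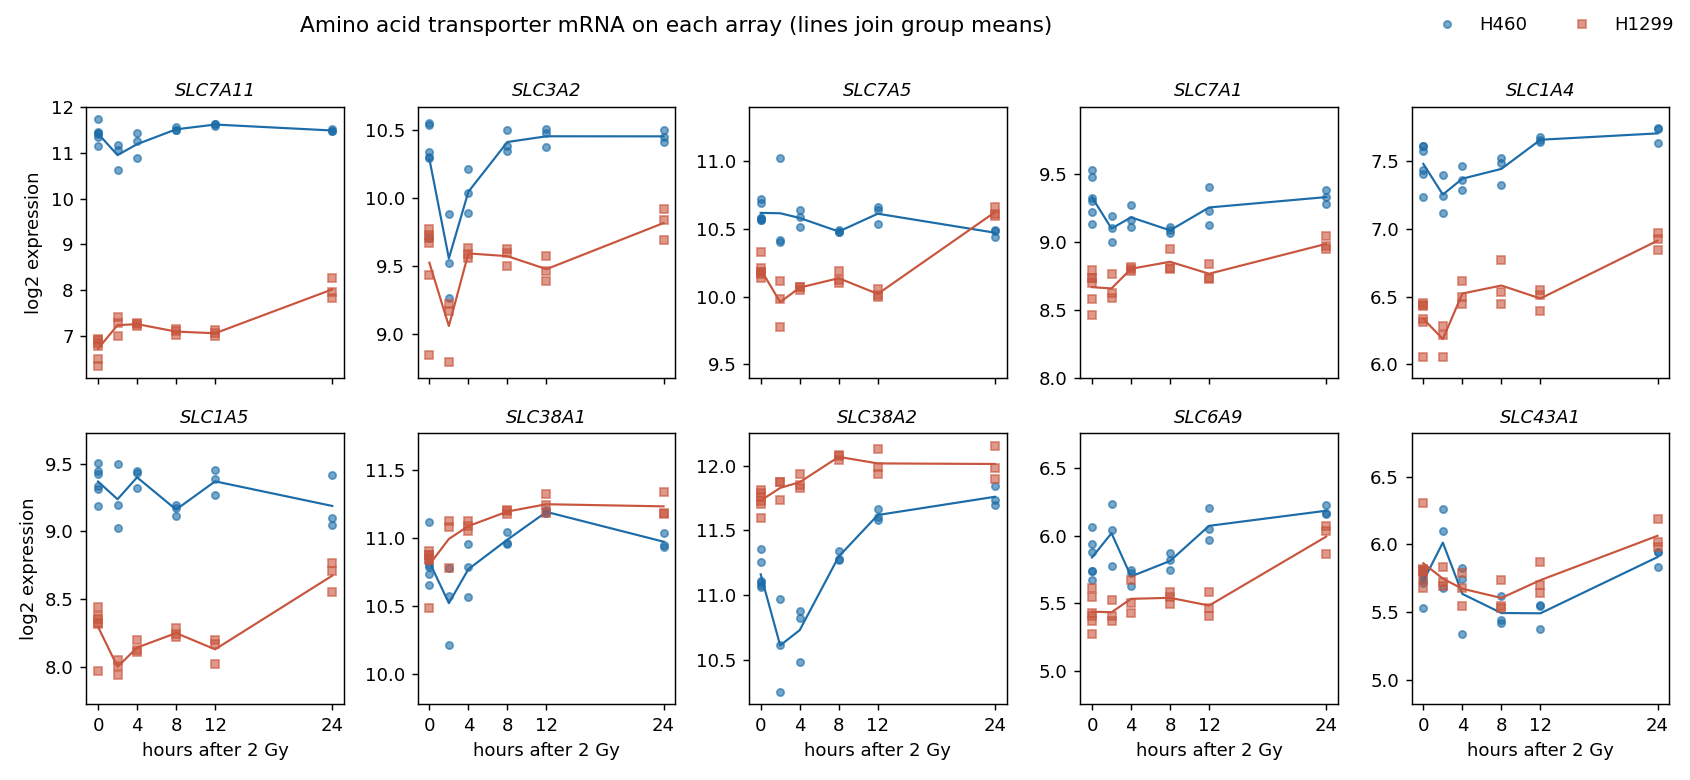
Levels of the 10 genes on all 42 arrays against hours after 2 Gy, with 1 panel per gene. Points are single arrays (circles H460, squares H1299) and lines join the group means, on vertical axes that span at least 2 log2 units. SLC7A5 in H1299 rises above H460 at 24 h, and SLC38A2 in H460 dips at 2 and 4 h and ends above its start.

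The clearest common change was in H1299 at 24 h. There 8 of the 10 genes rose and 0 fell, against 8.53% of all genes that rose and 3.21% that fell. Over all genes 1570 rose and 591 fell, and after centring each array on its median 1114 rose and 746 fell. The median change was 0.40, against 0.0020 over all genes, and all 10 changes were above 0. In each of the 8 genes, which were called from the same arrays, every 24 h array stood above every 0 h array. The share of all genes that separate in this way was not counted. In H460 at 24 h, 2 of the 10 rose (SLC38A2 and SLC6A9) and 0 fell, against 16.2% and 12.4% of all genes, with a median of 0.16 against -0.052. Over all genes there 2988 rose and 2287 fell, and after centring 2602 and 3152. The H460 count was 1 without 0 h replicate 2 or any 1 of the 24 h arrays, and then SLC6A9 was lost (adjusted p = 0.0502 to 0.0855).

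**Figure D3:**
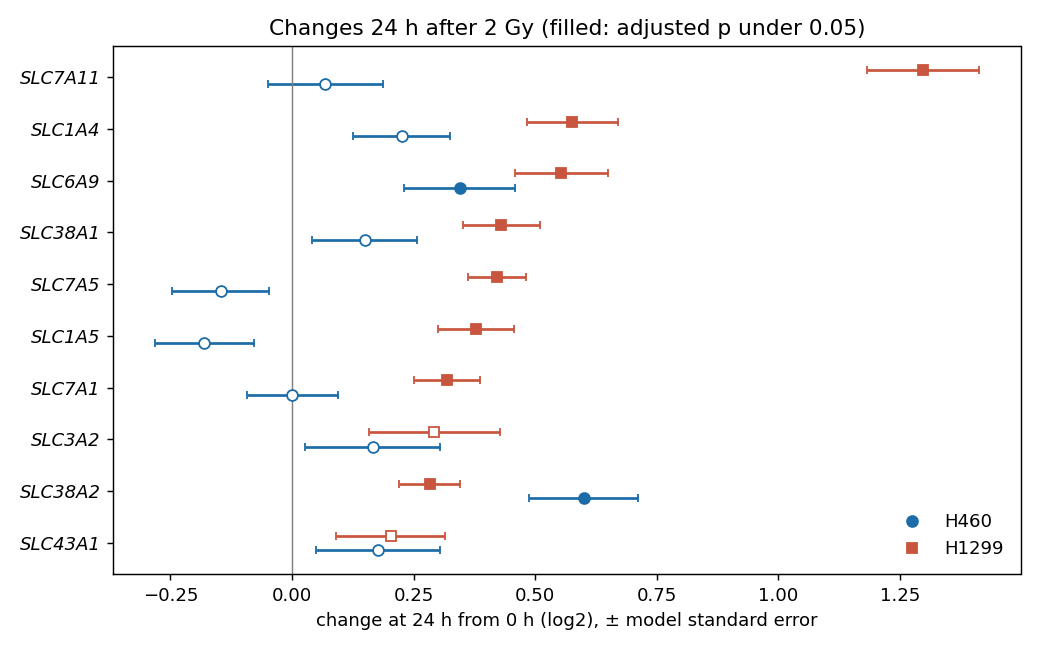
Change at 24 h from 0 h in each line, on the log2 scale, with the model standard error as bars (3 arrays against 6). Filled symbols passed an adjusted p of 0.05. All 8 filled squares of H1299 lie between 0.28 and 1.30, and SLC38A2 and SLC6A9 are the filled circles of H460.

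The light chain SLC7A11 rose the most of the 10. Its 24 h arrays in H1299 read 7.82, 7.96 and 8.26, above the highest 0 h array at 6.92. The change was 1.30 ± 0.12 (2.46-fold, limma's adjusted p = 3.64e-08). The level already stood above all 0 h arrays at 2 h (7.00, 7.28 and 7.41), and the gene rose there by 0.52 ± 0.12 (adjusted p = 0.00396). Without 2 h replicate 3 that change was 0.42 (adjusted p = 0.051). At 4 h it rose by 0.54 ± 0.12, with arrays at 7.26, 7.22 and 7.28. At 8 and 12 h the rises were 0.37 and 0.34, and these calls were less firm. The 8 h change was 0.35 or 0.37 without 8 h replicate 2 or 3 (adjusted p = 0.0794 and 0.0718). The 12 h change was 0.26 and 0.29 without 0 h replicates 2 and 3 (adjusted p = 0.0522 and 0.0579), and 0.34 and 0.30 without 12 h replicates 1 and 2 (adjusted p = 0.0711 and 0.129). Fitted together with array width, the 8 and 12 h changes were 0.13 and 0.08 (adjusted p = 0.516 and 0.7).

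In H460, where it starts far higher, SLC7A11 read 11.47, 11.52 and 11.48 at 24 h, inside the range of its 0 h arrays. The change was 0.07 (95% confidence interval -0.18 to 0.31, adjusted p = 0.689). In order of level, all 6 H460 groups stood above all 6 H1299 groups, and the lowest H460 array (10.62 at 2 h) was above the highest of H1299. Within H1299 the 24 h group was highest, and the groups at 4, 2, 8 and 12 h overlapped their neighbours in that order. The 0 h group was lowest, apart from all of them.

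SLC7A5 and SLC1A5 shared another shape in H1299, a level at or below the start for 12 h and a higher one at 24 h. SLC7A5 read 10.60, 10.61 and 10.66 at 24 h, against 10.14 to 10.33 at 0 h, and rose by 0.42 ± 0.060 (1.34-fold, adjusted p = 3.24e-05). At 2 h it fell by 0.24 ± 0.060, with arrays at 10.11, 9.99 and 9.78, all below the 0 h arrays. Without 2 h replicate 3 that value was -0.15 (adjusted p = 0.138). It fell by 0.18 ± 0.060 at 12 h, to 10.05, 10.01 and 10.00. That call ended without 0 h replicate 4 (-0.16, adjusted p = 0.057) and without 12 h replicate 2 or 3 (-0.18 and -0.17, adjusted p = 0.0899 and 0.0848). At 24 h the H1299 arrays of SLC7A5 stood above the H460 arrays of the same time, which read 10.44, 10.49 and 10.48, although H460 was the higher line at 0 h.

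SLC1A5 read 8.71, 8.76 and 8.55 at 24 h in H1299, above its highest 0 h array at 8.44, and rose by 0.38 ± 0.079 (1.30-fold, adjusted p = 0.0020). At 2 h it fell by 0.29 ± 0.079 (adjusted p = 0.0134), with arrays at 8.05, 8.01 and 7.94 that overlapped the 0 h range through replicate 2, the lowest at 7.97. Without 2 h replicate 3 the change was -0.27 (adjusted p = 0.0849). Without 0 h replicate 2 the changes at 4 and 12 h, -0.15 and -0.17, became -0.22 and -0.23 and passed (adjusted p = 0.0111 and 0.00482). The other row of SLC1A5 (row 8029854) was dimmer, and in H1299 its mean was 5.46 both before the dose (n = 6, SD 0.121) and 24 h after it (n = 3, SD 0.0513). With the mean of both rows in place of 1 row, the 24 h change was 0.18 (adjusted p = 0.142). With that mean the gene fell at 4, 8 and 12 h, by 0.29, 0.31 and 0.42 (adjusted p = 0.0118, 0.00468 and 2.1e-04), and its H460 course passed (adjusted p = 0.015).

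After SLC7A11, the largest 24 h rises among the 10 genes in H1299 were those of SLC1A4 and SLC6A9. SLC1A4 read 6.84, 6.92 and 6.97, above a 0 h maximum of 6.45, and rose by 0.58 ± 0.094 (1.49-fold, adjusted p = 1.68e-04). SLC6A9 read 6.08, 6.04 and 5.87, above a 0 h maximum of 5.62, and rose by 0.55 ± 0.095 (1.47-fold, adjusted p = 2.86e-04). Both stayed within 0.25 of the 0 h mean at 2, 4, 8 and 12 h, and no change of theirs at those times passed. Their order of levels in H1299 puts 24 h first, apart from the next group, and all other neighbours overlap. In H460 SLC6A9 rose by 0.34 ± 0.11 at 24 h, with arrays at 6.17, 6.16 and 6.23 against a 0 h maximum of 6.06. SLC1A4 read 7.63, 7.74 and 7.74 in H460, above its 0 h maximum of 7.61, with a change of 0.23 that did not pass (adjusted p = 0.0897).

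SLC7A1 rose by 0.32 ± 0.068 in H1299 at 24 h (adjusted p = 0.00231), with arrays at 8.95, 8.97 and 9.04 against 8.47 to 8.79. Its rise of 0.19 at 8 h (adjusted p = 0.045) lay at the threshold. That call was lost without 11 of the 21 arrays of the line, left out one at a time, with changes of 0.14 to 0.21 and adjusted p of 0.0508 to 0.254. In H460 its change at 24 h was 0.0010 (interval -0.19 to 0.19).

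The SNAT pair moved earlier in H1299. SLC38A1 rose at 4, 8, 12 and 24 h, by 0.28, 0.39, 0.45 and 0.43, and its 8 h arrays read 11.18, 11.21 and 11.20 against a 0 h maximum of 10.90. The 4 h call was lost without 4 h replicate 1 or 2 (0.27 and 0.28, adjusted p = 0.0759 and 0.0546). SLC38A2 rose from 8 h on (0.34, then 0.29 and 0.28), with 8 h arrays at 12.08, 12.05 and 12.08 against a 0 h maximum of 11.81. The 24 h change was 0.21 without 24 h replicate 3 (adjusted p = 0.0614).

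In H460 SLC38A2 fell and then rose. The 2 h arrays read 10.97, 10.61 and 10.25, the 4 h arrays 10.88, 10.49 and 10.82, and the 0 h arrays 11.06 to 11.36, with no overlap. The changes were -0.55 ± 0.11 at 2 h (adjusted p = 6.77e-04) and -0.43 ± 0.11 at 4 h (adjusted p = 0.0344). The 4 h call was lost without 0 h replicate 1 (-0.39, adjusted p = 0.0673) or any 1 of the 4 h arrays (-0.51, -0.31 and -0.48, adjusted p = 0.0525, 0.165 and 0.098). The arrays of 12 h read 11.67, 11.61 and 11.58 and the gene rose by 0.46 ± 0.11 (adjusted p = 0.00352). At 24 h they read 11.74, 11.84 and 11.70 and the rise was 0.60 ± 0.11 (1.52-fold, adjusted p = 2.79e-04). Fitted together with array width, the 12 and 24 h changes were 0.26 and 0.42 and did not pass (adjusted p = 0.422 and 0.082). SLC38A1 rose in H460 at 12 h, by 0.37 ± 0.11, with arrays at 11.19, 11.18 and 11.21 against a 0 h maximum of 11.12. With width fitted this was 0.22 (adjusted p = 0.497). Its 24 h change of 0.15 did not pass (adjusted p = 0.302).

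The heavy chain SLC3A2 was low at 2 h in both lines. In H460 the 2 h arrays read 9.52, 9.88 and 9.26, against 9.70 to 10.56 at 0 h, and it fell by 0.74 ± 0.14 (adjusted p = 3.47e-04). In H1299 they read 8.79, 9.21 and 9.16, against 8.84 to 9.77, and it fell by 0.47 ± 0.13 (adjusted p = 0.021). Both 2 h groups overlapped 0 h through replicate 2 of that time, the lowest 0 h array in either line. The H1299 value was -0.33 without 2 h replicate 1 (adjusted p = 0.138). With array width as a covariate its H1299 changes at 8 and 12 h, 0.048 and -0.048, became -0.31 and -0.42 and passed (adjusted p = 0.0405 and 0.00522). Its 24 h change in H1299, 0.29 ± 0.13, did not pass (adjusted p = 0.187). The heavy chain thus did not pass at the time when the light chains SLC7A11 and SLC7A5 rose. Its change was close to that of SLC38A2 (0.28 ± 0.063), which passed with a smaller standard error. The missed call alone does not show that SLC3A2 stayed level.

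SLC43A1 had a time course in H1299 (adjusted p = 0.0105), but no single time passed in either line. Its lowest H1299 group was 8 h (5.73, 5.55 and 5.53) and its highest was 24 h (6.18, 5.98 and 6.02). The 0 h replicate 2 stood at 6.30, above all others, and without it the 24 h change of 0.20 became 0.29 and passed (adjusted p = 0.0317).

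**Figure D4:**
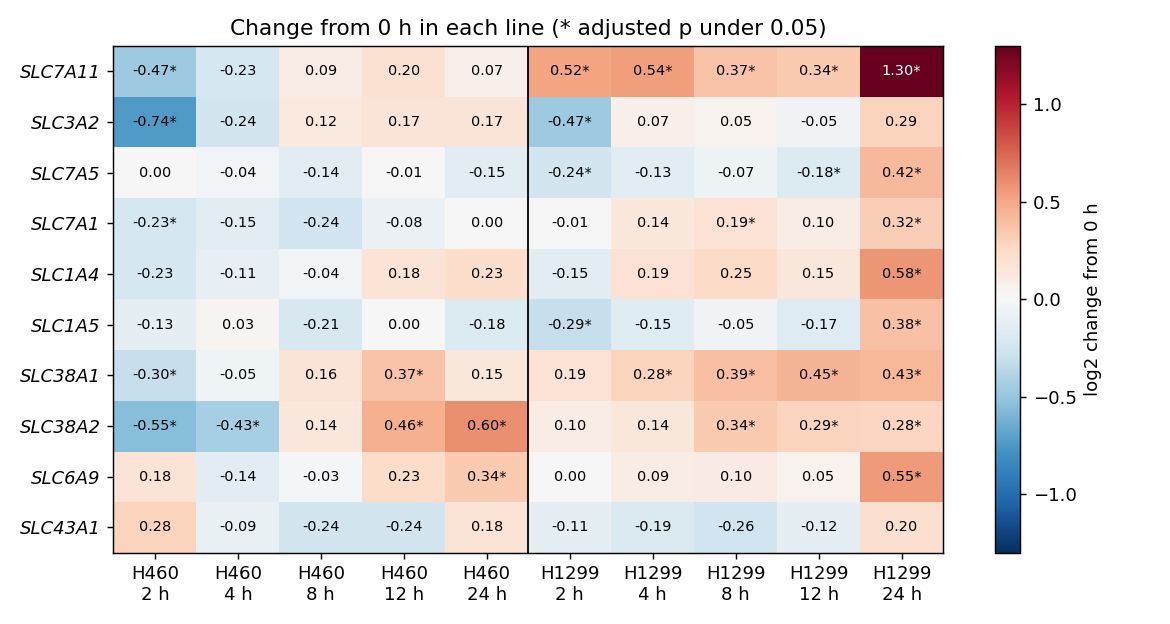
Changes from 0 h of the 10 genes at 5 times in each line, on the log2 scale (red higher, blue lower). Asterisks mark an adjusted p under 0.05. The 24 h column of H1299 holds 8 marked rises, and the 2 h column of H460 holds 5 marked falls.

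At the other times fewer of the 10 passed. In H460 at 2 h, 0 rose and 5 fell (SLC7A11, SLC3A2, SLC7A1, SLC38A1 and SLC38A2), against 16.7% and 23.7% of all genes. Of these, the SLC38A2 arrays alone did not overlap those at 0 h. The 2 h arrays of H460 were the narrowest group of the series, and, fitted together with array width, the 5 changes were -0.35 to -0.082 and did not pass (adjusted p = 0.739 to 0.94), so width and time could not be told apart there. Without 0 h replicate 1 or 2 h replicate 3 the count was 3. SLC7A11 fell by 0.47 ± 0.12, with arrays at 11.06, 11.18 and 10.62, and the value was -0.31 without replicate 3 (adjusted p = 0.0565). SLC38A1 fell by 0.30 ± 0.11, with arrays at 10.78, 10.57 and 10.21, and the value was -0.15 without replicate 3 (adjusted p = 0.291). SLC7A1, with a change of -0.23 and adjusted p = 0.0483, lost its call without 16 of the 21 arrays, left out one at a time. In H460 at 4 h, 0 rose and 1 fell (SLC38A2), against 1.37% and 1.55% of all genes (252 and 286, or 466 and 138 after centring). At 8 h, 0 rose and 0 fell by limma, against 10.7% and 6.22%, and 1 of the 10 had an unadjusted p under 0.05. At 12 h, 2 rose (SLC38A1 and SLC38A2) and 0 fell, against 16.7% and 16.8%.

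In H1299 at 2 h, 1 rose (SLC7A11) and 3 fell (SLC3A2, SLC7A5 and SLC1A5), against 5.88% and 7.93% of all genes (1083 and 1459, or 1524 and 846 after centring), and the count was 1 without 2 h replicate 3. The gene left without that array was SLC3A2. With the replicate number as a block the count was also 1, but the gene left was SLC7A11. At 4 h, 2 rose (SLC7A11 and SLC38A1) and 0 fell, against 10.0% and 5.83%. At 8 h, 4 rose (SLC7A11, SLC7A1, SLC38A1 and SLC38A2) and 0 fell, against 15.0% and 9.54%, and 2 rose without 8 h replicate 3. At 12 h, 3 rose (SLC7A11, SLC38A1 and SLC38A2) and 1 fell (SLC7A5), against 16.6% and 13.1%, and 2 passed without 12 h replicate 2.

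In H460 SLC1A5, SLC7A5, SLC43A1 and SLC1A4 had no single time that passed. SLC1A5 held group means between 9.16 and 9.40, and all neighbours in its order of levels overlapped. Its dimmer row (row 8029854) moved more. That row ran from 5.49 to 6.18 at 0 h, from 6.24 to 6.57 at 2 h and from 5.15 to 5.31 at 12 h. With the mean of both rows the 12 h change was -0.32 and passed (limma, adjusted p = 0.0213). SLC7A5 read 10.41, 10.42 and 11.02 at 2 h, and without the third array its change of -0.0028 became -0.21 and passed (adjusted p = 0.0453). SLC43A1 had its highest group at 2 h (5.68, 6.10 and 6.26), with a change of 0.28 that became 0.45 without the first array and then passed (adjusted p = 0.00806). SLC1A4 had a change of -0.23 at 2 h (adjusted p = 0.0717), and of -0.27 and -0.30 without 0 h replicate 2 or 2 h replicate 1, which passed (adjusted p = 0.0257 and 0.0293). SLC7A1 at 8 h read 9.06, 9.09 and 9.11, all below its 0 h arrays, with a change of -0.24 that did not pass (adjusted p = 0.0681).

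The order of levels over all 12 groups fell into several kinds. For SLC7A11, SLC1A4, SLC1A5 and SLC7A1 all 6 H460 groups had higher means than all 6 H1299 groups, and the lowest H460 group did not overlap the highest of H1299. For SLC7A5 the 24 h group of H1299 stood first, at a mean of 10.62, and overlapped the H460 group at 0 h, also at 10.62. For SLC6A9 the 24 h group of H1299, at 5.99, lay between the H460 groups of 2 h (6.02) and 0 h (5.84) and overlapped both. For SLC38A2 the first 5 groups were the irradiated groups of H1299, and the H460 group of 24 h (11.76) came next, overlapping its neighbours on either side. For SLC38A1 the groups of both lines were mixed, from 11.25 in H1299 at 12 h to 10.52 in H460 at 2 h. For SLC43A1 every neighbour in the order overlapped. For SLC3A2 the 12 h and 24 h groups of H460 led with means of 10.46, and the 2 h group of H1299 was last at 9.06, apart from the group before it.

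The lines' responses were compared directly. The time courses differed for SLC7A5 (adjusted p = 2.49e-04), SLC1A5 (adjusted p = 0.00352) and SLC7A11 (adjusted p = 0.0282), 3 of the 10 against 16.7% of all genes. At 24 h the H460 change was below the H1299 change for the same 3 and above it for 0, against 4.70% and 7.75% of all genes. That difference was -1.23 ± 0.17 for SLC7A11 (adjusted p = 1.78e-06), -0.57 ± 0.12 for SLC7A5 (adjusted p = 6.13e-04) and -0.56 ± 0.13 for SLC1A5 (adjusted p = 0.00245). The course difference of SLC7A11 did not pass without H460 24 h replicate 1, 2 or 3 or H1299 24 h replicate 2 or 3 (adjusted p = 0.0639 to 0.129). The 24 h count was 5 without H460 0 h replicate 2, which added SLC7A1 and SLC1A4 (-0.36 and -0.40, adjusted p = 0.0238 and 0.0332). It was also 5 without H460 2 h replicate 1 or 3. Both fits added SLC7A1 (-0.32, adjusted p = 0.0468 and 0.0377). They also added SLC38A2 in the opposite direction, with the larger change in H460 (0.32, adjusted p = 0.0498 and 0.043). At 12 h, 0 of the 10 passed in either direction, against 5.21% and 3.47% of all genes, and 0 had an unadjusted p under 0.05 in limma. For the other 7 genes the 24 h difference did not pass with all arrays, and the widest interval was that of SLC3A2, from -0.54 to 0.29.

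Other carriers of the plasma membrane, a list of 31 measured genes, were counted in the same way. In H1299 2 of the 31 rose and 1 fell at 24 h, with a median of -0.097, against 8.53% and 3.21% of all genes. The list was not tested against the 10 genes. The cationic amino acid carrier SLC7A2 rose by 0.33 ± 0.081, and it was 3.40 ± 0.092 higher in H460 at 0 h. The taurine carrier SLC6A6 rose in H1299 at 4, 8 and 12 h (0.37, 0.47 and 0.24) and had a change of -0.24 at 24 h that did not pass, and SLC36A4, a carrier of proline and tryptophan, rose by 0.28 to 0.39 at 2, 4, 8 and 12 h. In H460 at 24 h 1 of the 31 rose, the glutamate carrier SLC1A3 (0.29 ± 0.11), and 3 fell, against 16.2% and 12.4% of all genes. SLC6A19 fell by 0.61 and SLC7A10 fell by 0.47 there. At 0 h 11 of the 31 were higher in H460 and 3 lower, against 26.0% and 29.1% of all genes. SLC38A5, a glutamine carrier named here after its values were seen, stood at 8.76 in H460 (SD 0.149, n = 6) and 3.97 in H1299 (SD 0.291, n = 6).

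Among 16 carriers of lysosomes and mitochondria, 0 passed in H1299 at 24 h by limma (3 with an unadjusted p under 0.05, median 0.071), and 3 rose and 0 fell in H460 (median 0.085). Of all genes, 8.53% rose and 3.21% fell in H1299 and 16.2% and 12.4% in H460. The 3 were the lysosomal genes SLC38A9 (0.57 ± 0.15), which signals arginine to mTORC1, SLC38A7 (0.47 ± 0.11) and the cystine exporter CTNS (0.28 ± 0.10). The mitochondrial ornithine carrier SLC25A15 was 1.05 ± 0.075 higher in H460 at 0 h, and SLC38A9 had a difference of -1.47. The aspartate-glutamate carrier SLC25A13 rose in both lines at 12 h, by 0.35 in H460 and 0.34 in H1299.

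Of 15 measured regulators of this response, 4 rose and 2 fell in H1299 at 24 h, against 8.53% and 3.21% of all genes. CEBPG, which pairs with ATF4, rose by 0.53 ± 0.070, DDIT3 (CHOP) by 0.56 ± 0.13, CEBPB by 0.40 ± 0.11 and TRIB3, a target and inhibitor of ATF4, by 0.38 ± 0.086. ATF3 fell by 0.39 ± 0.11. The mRNA of ATF4 itself was lower in H1299 from 2 to 12 h (it fell by 0.34, 0.44, 0.35 and 0.41 at the 4 times), and its 24 h change of 0.14 did not pass (adjusted p = 0.196). ATF4 is mainly controlled at translation, which arrays do not measure. In H460 at 24 h 5 rose and 3 fell, against 16.2% and 12.4% of all genes, with ATF4 up by 0.35 ± 0.083 and CEBPB by 0.80 ± 0.099, while CEBPG had a change of -0.030. The 24 h difference between the lines passed for CEBPG (-0.56) and for no other of the 15.

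The genes with the most similar changes were found by Pearson correlation of the 10 mean changes (5 times in 2 lines), among 7198 genes with a change of at least 0.5. These are descriptions over points that share their 0 h arrays and the spread of each array. For SLC7A11 they were IFRD1 (r = 0.92), TWSG1 (0.90) and CEBPG (0.88). For SLC6A9 they were CHAC1 (0.83), CHST11 (0.82) and PCK2 (0.82). For SLC1A4 they were SLC20A1 (0.94), IER2 (0.93) and B3GAT3 (0.91). For SLC3A2 they were MARS1 (0.96), NAT9 (0.95) and DLGAP1-AS1 (0.95). For SLC38A2 they were ZMYM2, PARP8 and RECK (0.97 to 0.98).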

How the data were processed

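Total RNA (100 ng per array) was labelled by the standard Affymetrix protocol, per the labels' protocols. The deposited values are log2 intensities as judged from their range (1.45 to 14.2). The authors' background correction and normalization are not given in the sources used here, and no detection calls were used. Of 32321 rows, 19158 carry 1 gene symbol, 1388 several, and 11775 are not in the probe table; 754 second rows of a gene were left out, keeping the row with the highest mean. limma 3.58.1 (R 4.3.3) fitted a quadratic in hours within each line, as the study's design names it, and 1 mean per time point for changes from 0 h and for differences between lines. eBayes used a trend, all p-values were two-sided and were adjusted by Benjamini-Hochberg over 18404 genes, with a threshold of 0.05. Intervals are 95% and n is the number of arrays, which limits the precision. The tests were run on simulated data (for courses, with a change reached at 24 h). Of 100 genes with a change of 0.5, between 25 (difference of time courses) and 70 (H460 at 8 h) passed. Of 100 genes with a change of 1, between 88 (difference at 12 h) and 100 passed. The noise was drawn independently for each gene and array, so a width shared by the genes of an array was not covered. The 10 genes, the lists and the alternatives were chosen with earlier results of these data known. From each list up to 6 genes with the smallest time course p could be named. Same-numbered arrays did not deviate together (mean correlation -0.0084 in H460 and -0.018 in H1299), so no block was used. The number of value columns of no sample was 0.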

Additional observations from a re-analysis of the deposited data

Results flagged for a closer look

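Among the 20 groups of 6 arrays at 0 h (10 genes in 2 lines), 1 array lay far from the other 5 in 7 groups, by Dixon's criterion. Chance meets it in about 1 of 20 independent groups, but these groups share their arrays and are not independent. The share of all genes that meet it was not counted. The levels that lay apart were 9.70 for SLC3A2 in H460 replicate 2 and 5.53 for SLC43A1 in H460 replicate 3. The other 5 were all H1299 replicate 2, with SLC3A2 at 8.84, SLC1A4 at 6.06, SLC1A5 at 7.97, SLC38A1 at 10.5 and SLC43A1 at 6.30. That array was the narrowest of its group, with an interquartile range of 3.24, and the part of width in these levels was not tested. Without it 9 of the 10 genes passed in H1299 at 24 h, against 8 with it.

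The response differed between the lines in 3 genes by a direct test. The adjusted p of the difference of time courses was 0.0282 for SLC7A11, 2.49e-04 for SLC7A5 and 0.00352 for SLC1A5 (limma). The H460 change minus the H1299 change at 24 h was -1.23 for SLC7A11, -0.57 for SLC7A5 and -0.56 for SLC1A5.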

How the results depend on the processing

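Counts are of the 10 genes passing. With array width as a covariate the counts in H460 were 0 at 2 h, 0 at 12 h and 0 at 24 h, the differences of courses were 5 and the differences at 24 h were 6, and SLC3A2 in H1299 at 8 h turned to -0.31. Quantile normalization gave 2 in H460 at 8 h, 1 at 12 h, 5 differences of courses and 6 at 24 h. Leaving out dim genes gave 5 courses in H460 and 5 differences at 24 h. With 1 mean per time point the courses were 7 in H460 and the differences 6, against 12752 and 8744 of all 18404 genes. With only 0 h replicates 1 to 3 the counts were 3, 0 and 1 in H460 at 2, 4 and 12 h and 2 in H1299 at 2 h. With only replicates 4 to 6 they were 0 and 1 in H460 at 4 and 24 h and 2 in H1299 at 8 h. With only the arrays of both times compared they were 3 and 0 in H460 at 2 and 4 h and 1 and 2 in H1299 at 2 and 12 h. Median centring gave 0 in H460 at 4 h. With the mean of both rows SLC1A5 in H460 at 12 h turned to -0.32 and passed (limma, adjusted p = 0.0213). The causes were not tested. In H1299 at 24 h the count stayed within 7 to 9 under every alternative run.

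The replicate number as a block gave 0 of the 10 in H460 at 4 h and 1 in H1299 at 2 h, and for all genes 1552 against 2542 there. Arrays share only a number.

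Leaving out 1 array at a time gave 1 to 5 courses in H460 and 8 to 9 in H1299. At 2, 4, 8, 12 and 24 h it gave 3 to 6, 0 to 1, 0 to 1, 2 to 2 and 1 to 2 in H460, and 1 to 4, 1 to 3, 2 to 5, 2 to 4 and 7 to 9 in H1299. It gave 2 to 4 differences of courses, 0 to 0 at 12 h, 3 to 5 at 24 h, and 8 to 8 between lines at 0 h.

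Among all 18404 genes, width in the model changed the courses from 7712 to 2912 in H460 and from 6719 to 4216 in H1299. In H460 it changed the counts from 7435 to 0 at 2 h, 538 to 977 at 4 h, 3108 to 132 at 8 h, 6161 to 628 at 12 h and 5275 to 1548 at 24 h. In H1299 it changed them from 2542 to 4085 at 2 h, 4524 to 2865 at 8 h and 5474 to 3263 at 12 h. Courses by means numbered 12752 in H460, and differences 8744 against 3072. Quantile normalization gave 1935 in H460 at 8 h. Replicates 4 to 6 alone gave 138, 903, 3544 and 3145 in H460 at 4, 8, 12 and 24 h, and replicates 1 to 3 gave 1693 in H1299 at 2 h. The arrays of both times alone gave 207 in H460 at 4 h, and 932 and 1233 in H1299 at 2 and 24 h.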
